A study of Mus musculus with 6 samples.

Results

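The genes described here encode the receptor chains for the cytokines IL-23, IL-12, IL-1 and IL-18, with the kinases Jak2 and Tyk2 and the transcription factor Stat4 that carry part of their signals. They were listed by name, and probe sets were assigned to them through the platform annotation. Of the 10 listed genes, 9 were measured, each by 1 probe set, among 19938 genes tested in all. Il1r1, the signalling receptor for IL-1, was not analysed here. Transcripts of group 3 innate lymphoid cells (ILC3s) that carry the chemokine receptor CCR6 were profiled on Affymetrix mouse arrays, 1 per sample. The cells were sorted from the lamina propria of the small intestine of adult C57BL/6 mice and were not cultured. In 3 samples, called RANKL-deficient, a Cre transgene was present together with Tnfsf11fl/fl, and 3 control samples were Tnfsf11fl/fl alone. Tnfsf11 encodes RANKL, a cytokine of the TNF superfamily, and both groups carry its floxed alleles. The control labels name no Cre, and an effect of Cre cannot be told apart from that of the deletion. Nothing in the labels tells whether each sample was 1 mouse or a pool, so p-values reflect the variation among these samples, part of which can be technical.

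IL-23 and IL-12 are built on a shared ligand subunit and bind receptors that share the chain IL-12Rβ1, encoded by Il12rb1. Il23r completes the receptor for IL-23 and Il12rb2 the receptor for IL-12. Tyk2 sits on the shared chain and Jak2 on the specific chains, and STAT3 follows mainly from IL-23 and STAT4 mainly from IL-12. IL-1 and IL-18 act through a different machinery, in which a ligand-binding chain pairs with an accessory chain and recruits the adaptor MyD88. In the gut, IL-23 and IL-1β from myeloid cells drive ILC3s to make IL-22, IL-17 and GM-CSF. IL-12 with IL-18 is known for inducing interferon-γ.

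The arrays had medians of 5.067 to 5.099 on the log2 scale in the RANKL-deficient group and 5.118 to 5.153 in the control group. The SD over genes was 1.996 to 2.012 on RANKL-deficient and 1.864 to 1.99 on control arrays. Neither range overlapped between the groups. Control array 1 had the narrowest spread over genes (SD 1.86, against 1.93 to 2.01 on the others) and correlated least with the others on average (0.960, against 0.970 to 0.977). Tnfsf11 measured 8.36, 8.65 and 8.52 on RANKL-deficient arrays 1 to 3 and 8.76, 8.41 and 8.25 on control arrays 1 to 3, so the groups overlapped. The position of its probe set relative to the floxed exons is not given in the sources used here, and the value does not check the labels. With Benjamini-Hochberg adjustment over all genes, limma called 1 gene, or 0.00502% of those tested, and none of the 9 measured receptor and signalling genes. At an unadjusted p under 0.05, 8.15% of genes were called. Over all genes, the median of the log2 differences (RANKL-deficient minus control) was −0.054, and 39.5% of genes had a difference above 0. For the 9969 genes with a mean above the median, the median difference was 0.033.

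The mean log2 value of the 12 measured ILC3 and LTi markers was 10.23 to 10.39 on RANKL-deficient arrays and 10.18 to 10.21 on control arrays, without overlap. Of the 12, 7 had a difference above 0 and 5 below. For 4 of the 12 (Thy1, Cxcr5, Lta and Il2ra) all RANKL-deficient arrays lay above all control arrays, against 5.28% of all genes. The groups overlapped for the other 8. The list was chosen with earlier results of these data known. Il7r, the IL-7 receptor chain of innate lymphoid cells, measured 12.23 to 12.29 on RANKL-deficient and 12.26 to 12.32 on control arrays. Ccr6, the sorting marker, measured 9.28 to 9.55 and 8.59 to 9.80. Of that list, Cxcr5, a receptor for homing to B cell follicles, differed by 0.85, and the lymphotoxin genes Lta (0.21 without control array 2) and Ltb by 0.36 and −0.42, none past the adjusted threshold. Several of the listed receptor genes are also used by T cells, NK cells and ILC1s. The mean of the 12 T cell markers was 5.29 to 5.54 on RANKL-deficient and 5.37 to 5.65 on control arrays, and that of the 10 NK and ILC1 markers was 4.59 to 4.73 and 4.56 to 4.95. The ILC2 markers averaged 4.26 to 4.56 on RANKL-deficient and 4.47 to 4.61 on control arrays, the B cell markers 5.12 to 5.20 and 5.16 to 5.28, and the myeloid markers 4.73 to 5.36 and 5.02 to 5.30. The epithelial markers averaged 4.97 to 5.71 on RANKL-deficient and 5.45 to 5.52 on control arrays. The stromal and endothelial markers were the 1 list of other cell types whose groups did not overlap, at 5.51 to 5.71 on RANKL-deficient and 5.75 to 5.85 on control arrays. The files hold no detection calls, so no marker could be called absent. The part of other cells in the results below was not tested. In bulk samples, fewer cells of a type and less RNA per cell cannot be told apart.

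Il12rb1 was the 1 gene among the 9 whose groups did not overlap. It encodes the chain that the receptors for IL-23 and IL-12 share. It measured 7.94, 6.74 and 6.89 on RANKL-deficient arrays 1 to 3, against 5.60, 5.69 and 6.49 on control arrays 1 to 3. All RANKL-deficient arrays lay above all control arrays, with a gap of 0.25 between RANKL-deficient array 2 and control array 3, and RANKL-deficient array 1 stood well above the rest of its group. The means were 7.19 ± 0.66 in RANKL-deficient and 5.93 ± 0.49 in control cells (SD, n = 3 each). The difference of 1.26 on the log2 scale (SE 0.37, 95% interval 0.39 to 2.14) is 2.40-fold. It had an unadjusted p of 0.0111, as 4.25% of all genes had one under 0.05 in this direction, and did not pass the adjusted threshold (limma, adjusted p = 0.513). It ranked 432nd of all genes by p, and its difference lay at the 99.7th percentile of all differences. Groups did not overlap for 14.4% of all genes, and RANKL-deficient arrays lay above control arrays for 5.28%, so a count of 1 in 9 is near the background.

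The size of the Il12rb1 difference depended on single arrays, but its direction did not. Without RANKL-deficient array 1 it was 0.89, and without control array 3 it was 1.54. Without control arrays 1 and 2 together it was 0.70 with an unadjusted p of 0.227. Genes listed as markers of T cells, NK cells and ILC1s lay apart in both directions on the same arrays. Which cells expressed them, the sorted ILC3s or others, was not tested. Of the 12 T cell markers, 4 had a difference above 0 and 8 below, with a median of −0.0071. The coreceptor gene Cd4 and the signalling adaptor gene Lat lay higher without overlap, by 0.69 and 0.51, and Cd3g, of the T cell receptor complex, lay lower without overlap, by −1.91. Cd4 measured 9.27, 9.19 and 9.50 in RANKL-deficient and 8.19, 8.79 and 8.93 in control cells. Of the 10 NK and ILC1 markers, 3 had a difference above 0 and 7 below, with a median of −0.10. Klrk1, which encodes the activating receptor NKG2D, lay higher without overlap, by 1.20, and Ncr1, which encodes the receptor NKp46, lay lower without overlap, by −0.93. None of the markers in these lists passed the adjusted threshold (limma, adjusted p from 0.256), and the 5 named were picked after their values were seen. They are all the markers of the 2 lists whose groups did not overlap. Among all genes, 5.28% lay higher without overlap and 9.08% lower. The protein-coding genes on either side of Il12rb1 on chromosome 8 are Mast3 and Arrdc2, which differed by 0.13 and 0.0100.

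**Figure D1:**
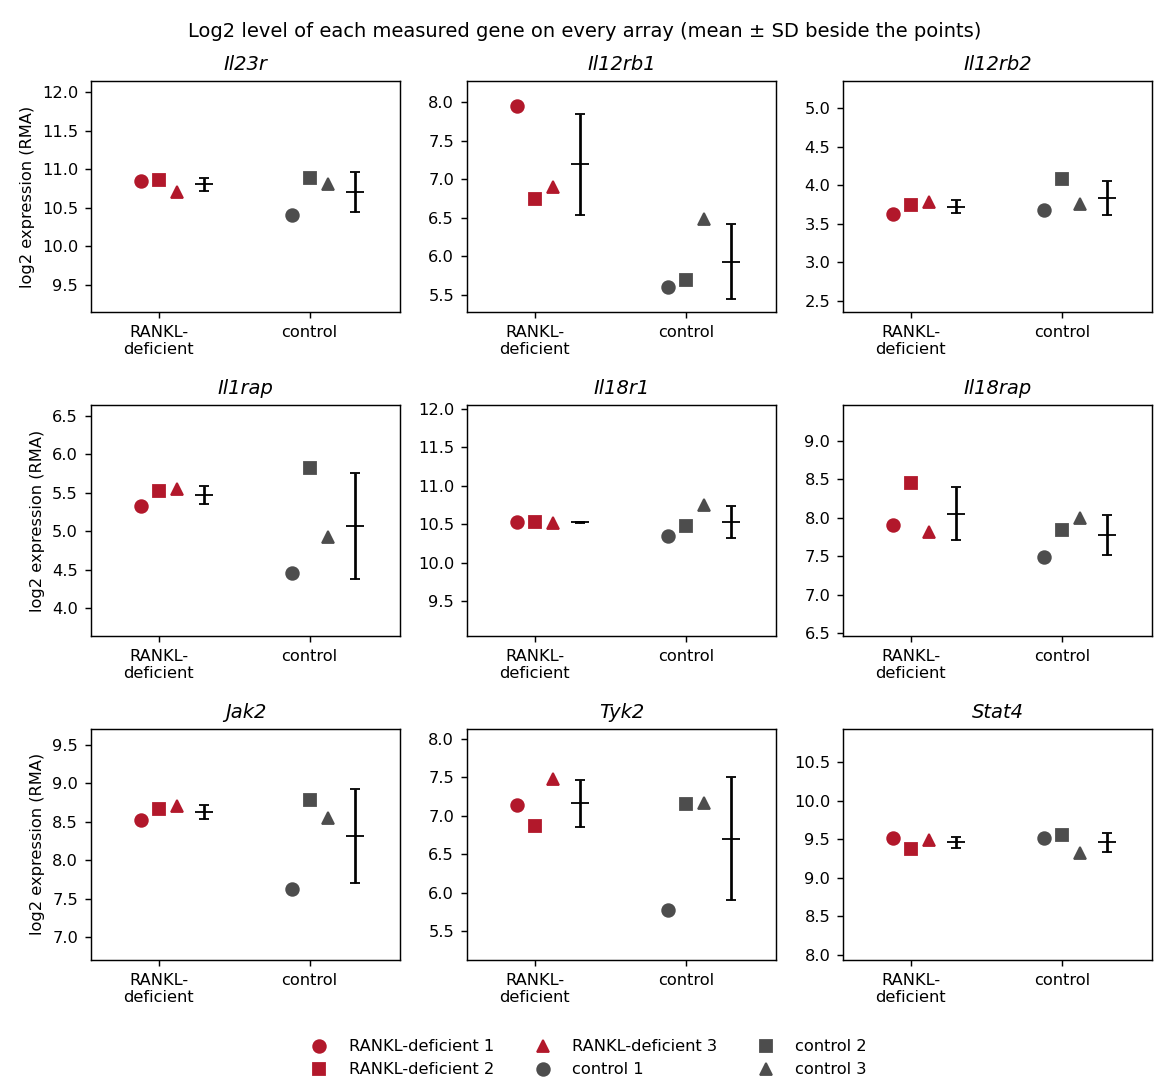
Log2 expression of the 9 measured genes on each of the 3 RANKL-deficient arrays (red, left) and 3 control arrays (grey, right), with the group mean ± SD beside the points; every panel spans the same number of log2 units. Il12rb1 is the 1 panel in which the groups do not overlap. Control array 1 (grey circle) is the lowest point for 7 of the 9 genes, Il12rb1 among them, and not for Il12rb2 and Stat4.

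The specific chains of both receptors had smaller differences, and their groups overlapped. Il23r, the chain that makes cells responsive to IL-23, measured 10.84, 10.86 and 10.71 in RANKL-deficient and 10.40, 10.89 and 10.81 in control cells. All 3 RANKL-deficient arrays lay within the range of the control arrays. The difference was 0.10 (SE 0.16, 95% interval −0.28 to 0.49, limma adjusted p = 0.864), an interval that runs from 0.825-fold to 1.40-fold. Its sign turned under quantile normalization, to −0.0093, and without control array 1, to −0.045. Il12rb2, which completes the IL-12 receptor, measured 3.63, 3.75 and 3.79 in RANKL-deficient and 3.67, 4.08 and 3.75 in control cells. Control array 2 was the highest and the other arrays lay close together. The difference was −0.11 (SE 0.15, 95% interval −0.46 to 0.24, adjusted p = 0.840), or 0.725-fold to 1.18-fold. Its mean over the arrays lay at the 21st percentile of all gene means, a place that also depends on its probes, and whether the transcript was detected is not known here.

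The difference between the shared chain and each specific chain was also computed on each array. Il12rb1 had already separated the groups, so these values are not independent of its own difference and add no separate support. The log2 value of Il12rb1 minus that of Il23r was −2.90, −4.12 and −3.82 on RANKL-deficient arrays and −4.80, −5.20 and −4.32 on control arrays, a shift of 1.16. The groups did not overlap, and the p of an exact permutation test, two-sided, was 0.1, the smallest that 3 arrays against 3 allow. Against Il12rb2, the shift was 1.38, also with an exact two-sided permutation p of 0.1. Over these 2 comparisons, the Benjamini-Hochberg adjusted p was 0.1 for each. Only these pairs, both with Il12rb1, were tested. Among pairs without it, the shift was −0.22 for Il12rb2 minus Il23r, 0.28 for Il18rap minus Il18r1 and 0.15 for Tyk2 minus Jak2. Il23r and Il12rb2 are next to each other among the protein-coding genes of chromosome 6, and the annotated locus of Il12rb2 overlaps that of Serbp1. Serbp1, an RNA-binding protein gene, differed by 0.096.

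**Figure D2:**
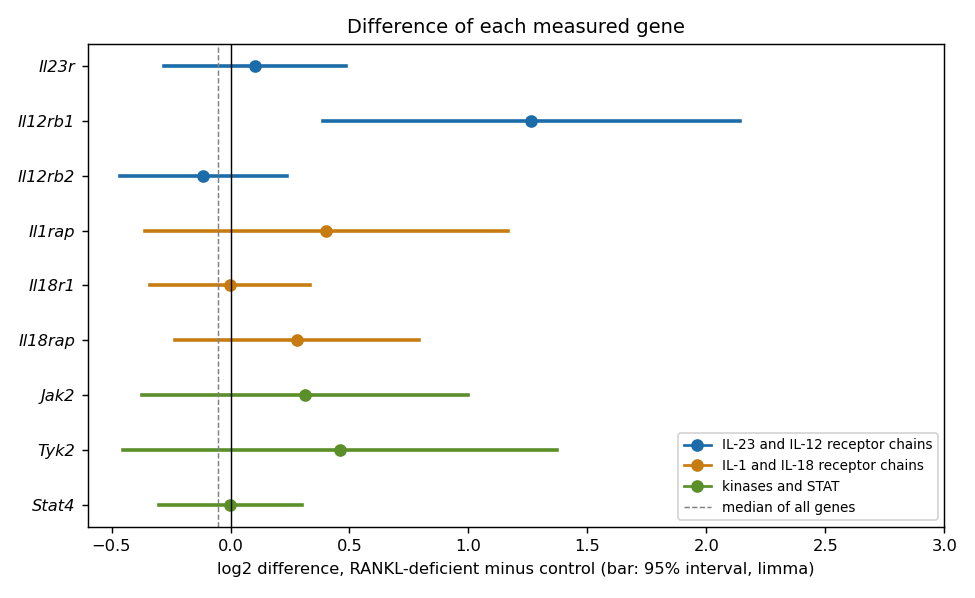
Log2 difference, RANKL-deficient minus control, of the 9 measured genes (points) with the 95% interval from limma (bars), coloured by role; the dashed line is the median of all genes. The interval of Il12rb1 (0.39 to 2.14) is the 1 that excludes 0 before adjustment over all genes, and Il23r, Il12rb2, Il18r1 and Stat4 have the narrowest intervals.

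Among the chains for IL-1 and IL-18, no gene separated the groups. Il18r1, the ligand-binding chain for IL-18, measured 10.53, 10.53 and 10.51 in RANKL-deficient and 10.34, 10.48 and 10.75 in control cells. The RANKL-deficient arrays nearly coincided (SD 0.0089) inside the wider control range (SD 0.21). The difference was −0.0011 (SE 0.14, 95% interval −0.34 to 0.33, adjusted p = 0.998), which spans 0.792-fold to 1.26-fold. Its sign was not stable, at −0.092 when control array 1 was left out and 0.11 when control array 3 was. Il18rap, the accessory chain that the IL-18 receptor needs to signal, measured 7.90, 8.44 and 7.81 in RANKL-deficient and 7.48, 7.84 and 7.99 in control cells. RANKL-deficient array 2 was the highest and control array 1 the lowest, and the other arrays overlapped. The difference was 0.28 (SE 0.22, 95% interval −0.23 to 0.79, adjusted p = 0.736), and without RANKL-deficient array 2 it was 0.084.

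Il1rap encodes the accessory protein shared by the receptors for IL-1, IL-33 and IL-36. It measured 5.33, 5.53 and 5.55 in RANKL-deficient and 4.46, 5.82 and 4.92 in control cells. The control arrays lay on both sides of the RANKL-deficient ones, with an SD of 0.69 in control against 0.12 in RANKL-deficient cells. The difference was 0.40 (SE 0.32, 95% interval −0.36 to 1.17, adjusted p = 0.746). It was 0.10 without control array 1 and 0.78 without control array 2, where the unadjusted p was 0.00605 (limma, adjusted p = 0.599) and the groups no longer overlapped, as for 23.1% of all genes in that fit.

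Several of the IL-1 receptor family genes, though not Il1rap, lie in a cluster on chromosome 1. In that cluster Il1r2, the decoy receptor for IL-1, measured 5.16 to 5.59 in RANKL-deficient and 5.18 to 5.52 in control cells, a difference of −0.047. Il1rl2, the receptor for IL-36, differed by 0.19 (SE 0.24), and its sign turned without RANKL-deficient array 2, to −0.045. Il1rl1, the receptor for IL-33, was not analysed here. Slc9a4, a sodium-proton exchanger gene beside Il18rap, differed by −0.029. Outside the cluster, Sigirr, an inhibitory receptor of the family, differed by 0.097 (SE 0.16), and Il1rapl1, a relative best known from neurons, by −0.19 (SE 0.11). Il1rapl1 was the 1 of the 5 measured other family chains whose groups did not overlap, near the 14.4% of all genes, and none passed the adjusted threshold.

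The kinases varied more among control arrays than between groups. Jak2, which sits on the specific chains, measured 8.52, 8.66 and 8.70 in RANKL-deficient and 7.62, 8.78 and 8.55 in control cells. Control array 1 was the lowest, control array 2 was the highest of all 6, and control array 3 lay among the RANKL-deficient arrays. The difference was 0.31 (SE 0.29, 95% interval −0.37 to 1.00, adjusted p = 0.775), and without control array 1 it was −0.035. Tyk2, the kinase of the shared chain, measured 7.14, 6.87 and 7.48 in RANKL-deficient and 5.78, 7.16 and 7.17 in control cells. Control array 1 was again the lowest by a wide margin. The difference was 0.46 (SE 0.39, 95% interval −0.45 to 1.37, adjusted p = 0.754), and without control array 1 it was −0.0020. Cdc37, the neighbour of Tyk2 on chromosome 9 and a co-chaperone of kinases, also had its lowest value on control array 1, at 6.81, against 8.15 and 8.57 on control arrays 2 and 3 and 8.44 to 8.73 in RANKL-deficient cells.

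Stat4, the transcription factor downstream of IL-12, had the narrowest interval of the 9 genes. It measured 9.51, 9.37 and 9.49 in RANKL-deficient and 9.51, 9.55 and 9.31 in control cells. All RANKL-deficient arrays lay within the control range. The difference was −0.00053 (SE 0.13, 95% interval −0.30 to 0.30, adjusted p = 0.999), an interval from 0.812-fold to 1.23-fold. The sign turned under 5 alternatives, among them median centring at 0.037.

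**Figure D3:**
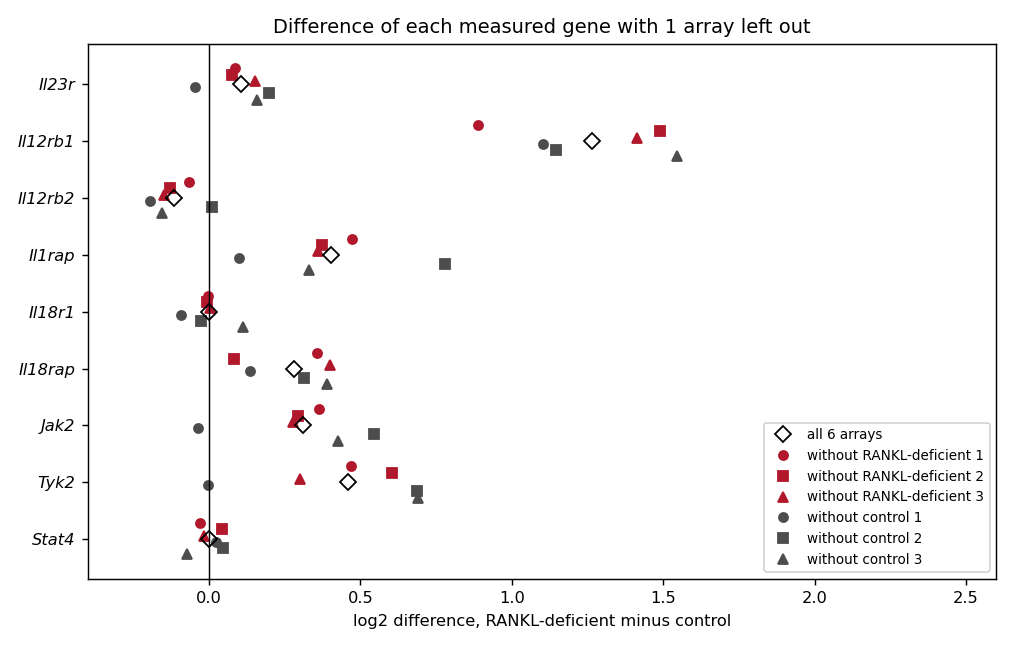
Log2 difference, RANKL-deficient minus control, of the 9 measured genes with all 6 arrays (open diamonds) and with each array left out in turn (red, a RANKL-deficient array; grey, a control array). Without control array 1 (grey circles), Jak2, Tyk2 and Il23r lie at or just below 0, while Il12rb1 stays between 0.89 and 1.54.

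Over the 9 genes, 6 had a difference above 0 and 3 below, with a median of 0.28, where the median of all genes was −0.054. Of the 9, 8 had a mean level above the median of all genes. For all genes with such a level, the median difference was 0.033. Control array 1 had the lowest value of the 6 arrays for 7 of the 9 genes, all but Il12rb2 and Stat4. It was the lowest array for 17.9% of all genes and for 30.5% of the 9969 genes with a mean above the median. Without control array 1 the median of the 9 differences was −0.0020, and 5 of the 9 lay below 0. In that fit Il12rb1 differed by 1.102 (SE 0.42, unadjusted p = 0.0381) and Il12rb2 by −0.19. Control values varied more than RANKL-deficient values for 7 of the 9 genes and for 66.4% of all genes.

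Several correlations among the genes rested on the same array. Across the 6 arrays Jak2 and Tyk2 had a Pearson correlation of 0.932 and a Spearman correlation of 0.600, and without control array 1 the Pearson correlation was 0.145. For Il23r and Jak2 it was 0.920 with 6 arrays and 0.0793 without control array 1. Jak2 and Il1rap kept 0.868 without that array, against 0.896 with it. These are descriptions of 6 arrays that share control array 1, with no test. Of 6046 genes with an SD of at least 0.3 over the arrays, those most like Il23r were Akt2 (Pearson 0.9985) and Zbtb6 (0.9982). For Il12rb2 they were 9930021J03Rik (0.9928) and Zfp78 (0.9901), and for Il18r1 they were Txlng (0.9977) and Necap1 (0.9885), over 6 arrays each. These are the 2 highest of 6046 correlations for each gene, so values near 1 can come from the selection alone. Such correlations were not computed without control array 1.

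The groups overlapped for 12 of the 13 measured genes of ligands and soluble inhibitors. Of the 13, 3 had a difference above 0 and 10 below, with a median of −0.12, and none passed the adjusted threshold. Ebi3, a subunit that the IL-12 family members IL-27 and IL-35 share, was the 1 gene of the list whose groups did not overlap. It measured 5.86, 6.51 and 5.81 in RANKL-deficient and 6.90, 8.20 and 7.01 in control cells. All RANKL-deficient arrays lay below all control arrays, as for 9.08% of all genes, and 3.9% had an unadjusted p under 0.05 in this direction. The difference was −1.31 (SE 0.37, unadjusted p = 0.00940, limma adjusted p = 0.483), and without control array 2, the highest, it was −0.90. The alarmin gene Il33 and the IL-1 ligand gene Il1a differed by −0.45 and −0.21, with overlapping groups. Il33 differed by −0.27 without control array 3, and Il1a by −0.084 without control array 2. The IL-12 receptor chains belong to the same structural family as the IL-6 receptor chains, and 5 of 6 measured relatives had a difference below 0. Il6ra, Il6st and Il27ra, chains of the receptors for IL-6 and IL-27, differed by −0.39, −0.58 and −0.26, with overlapping groups and adjusted p of 0.615 to 0.730. With 1 array left out, Il6st ran from −0.94 to −0.25 and Il27ra from −0.43 to −0.13.

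The remaining JAK and STAT genes lay close to 0. Of 6 measured, 3 had a difference above 0 and 3 below, from −0.17 for Stat6 to 0.060 for Stat5a, and none had an unadjusted p under 0.05. Stat5b differed by −0.11. Stat3, the main STAT of IL-23 signalling, was picked after its values were seen. It measured 8.75, 8.94 and 8.80 in RANKL-deficient and 9.01, 8.65 and 8.80 in control cells, a difference of 0.0068 (SE 0.14). Jak3 was not analysed here.

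In the MyD88 branch, which carries the signals of IL-1 and IL-18, single genes lay apart in both directions. Of 11 measured, 5 had a difference above 0 and 6 below, with a median of −0.068. Traf6, the ubiquitin ligase of the pathway, measured 6.55, 6.67 and 6.74 in RANKL-deficient and 4.82, 6.30 and 6.15 in control cells. The groups did not overlap, and control array 1 was far below the rest. The difference was 0.89 (SE 0.37, unadjusted p = 0.0461, limma adjusted p = 0.607), and 0.43 without control array 1. Tab3 and Tab2, adaptors of the kinase TAK1, lay lower in RANKL-deficient cells without overlap, by −0.90 (SE 0.34, unadjusted p = 0.0333) and −0.25 (SE 0.12, unadjusted p = 0.0703). Tab3 differed by −0.59 without RANKL-deficient array 3, with an unadjusted p of 0.0988, and by −0.61 without control array 1, with an unadjusted p of 0.0977. Of the 11, 1 lay higher without overlap and 2 lower, where 5.28% and 9.08% of all genes did. An unadjusted p under 0.05 (limma) was found for 1 higher and 1 lower, against 4.25% and 3.9% of all genes. None of the 11 passed the adjusted threshold.

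Among genes known to respond to IL-23 and IL-1, 7 of 10 measured had a difference above 0, with a median of 0.31, and none passed the adjusted threshold. Cxcl2, a neutrophil-attracting chemokine gene, measured 7.29, 7.71 and 7.19 in RANKL-deficient and 7.10, 5.50 and 5.46 in control cells. The groups did not overlap, as for 5.28% of all genes in this direction, but control array 1 lay close to the RANKL-deficient arrays. The difference was 1.37 (SE 0.44, unadjusted p = 0.0162, limma adjusted p = 0.536). It was 1.92 without control array 1 and 1.09 without control array 3. Nfkbiz, a nuclear cofactor of NF-κB, and Tnfaip3, an inhibitor of NF-κB signalling, differed by 0.40 and 0.36, with overlapping groups, and by 0.18 and 0.12 without control array 1. Both signs turned without control arrays 1 and 2 together, to −0.048 and −0.031.

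Genes known to respond to IL-12 and IL-18 gave 5 differences above 0 and 5 below among 10 measured, with a median of 0.030. Gadd45b, a stress-induced gene that supports interferon-γ production in T cells, measured 8.56, 8.54 and 8.52 in RANKL-deficient and 5.07, 7.12 and 7.40 in control cells. The RANKL-deficient arrays lay together above all control arrays. The difference was 2.01 (SE 0.56, unadjusted p = 0.00908, limma adjusted p = 0.475), and 1.28 without control array 1. Ets1, a transcription factor of lymphocytes, lay higher by 0.36 (SE 0.13, unadjusted p = 0.0264, adjusted p = 0.582), also without overlap. These were 2 of the 10, where 5.28% of all genes lay higher without overlap. An unadjusted p under 0.05 (limma) in this direction was found for 4.25% of all genes. Socs1, a feedback inhibitor of JAKs, differed by 0.43 with overlapping groups, and by 0.27 without control array 2. Ifng, which encodes interferon-γ, was picked after its values were seen and measured 4.02 to 4.32 in RANKL-deficient and 4.01 to 4.46 in control cells.

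**Figure D4:**
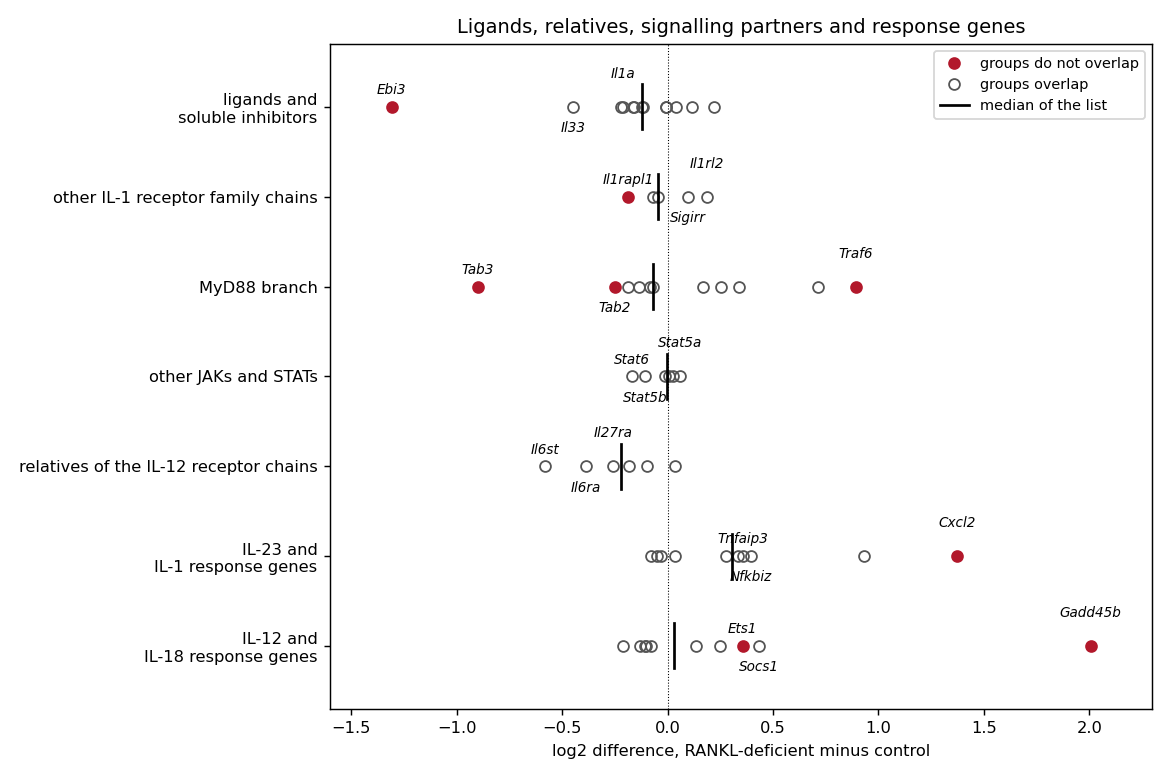
Log2 difference, RANKL-deficient minus control, of every measured gene in 7 lists around the receptors, with the list median (black bar); filled red points are genes whose groups do not overlap, and the named genes are labelled. Ebi3 and Tab3 lie farthest below 0 and Gadd45b and Cxcl2 farthest above, and none passed the adjusted threshold.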

How the data were processed

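The authors deposited log2 values for 35556 probe sets on each of 6 arrays. Per the submitters' processing notes, Affymetrix Expression Console and RMA were used. The sources used here give neither their versions nor the annotation release or build. RMA gives arrays nearly equal distributions, so a shift of all genes would not be seen. The medians and SDs over genes still differed slightly between the groups. RNA (2 ng) was amplified before labelling, per the labels' protocols. No depth exists for arrays, and their number limits the precision.

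Gene names came from the platform annotation, with symbols updated by gene identifier against RefSeq (GRCm38.p6), used for names and neighbours only. Of the probe sets, 21789 had 1 symbol and were used, and 13767 with several or none were not. For 999 genes with more than 1 probe set, the highest mean was taken. Groups came from the sample titles.

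The groups were compared by limma 3.58.1 (R 4.3.3; lmFit and eBayes without a block, two-sided) and p-values were adjusted by Benjamini-Hochberg over 19938 genes, with a threshold of 0.05 and no filter on low values. The procedure was tested on simulated normal values with the same SD in both groups. In these data control values varied more for 66.4% of all genes, a difference in spread that the simulation did not cover. Members and lists were chosen with earlier results of these data known. All members were named, and of each list around the receptors up to 3 genes with the smallest p. For likeness, the 2 genes with the highest correlation were named. Alternatives were other normalizations, probe set rules, eBayes options, array weights, a filter on low values, a replicate block and leaving out arrays. Whether replicate numbers pair the samples is not known. Some planned list genes are not reported here.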

Additional observations from a re-analysis of the deposited data

How the results depend on the processing

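Of the 33 genes named for the receptors and the lists, none passed the adjusted threshold under any of the 16 alternatives. Il12rb1, Il1rap and Il18rap kept the sign of their difference in all of them, as did 17 of the 24 list genes. Il12rb1 ranged from 0.70 to 1.54, with adjusted p from 0.227 to 0.898. The count of genes past the adjusted threshold was 1, and 2 with trend and robust options. It was 0 with the replicate block, 0 without control arrays 1 and 2 together and 0 to 1 with 1 array left out. Whether the replicate numbers pair the samples is not known. Deviations from the group means correlated at −0.023 to 0.050 between samples of the same number, which cannot settle it. With the block, Il12rb1 had an unadjusted p of 0.0191 (limma). Counts over the 9 measured genes were added after seeing the data. With 1 array left out, 1 to 2 had an unadjusted p under 0.05, where 5.7% to 14.1% of all genes had one, and 1 to 2 had groups without overlap, as had 22.6% to 35.3% of all genes. Without control arrays 1 and 2 together, 4 of the 9 had no overlap with the 1 control array left, as had 51.7% of all genes, and the gene with an unadjusted p under 0.05 was Il1rap (0.0243). Signs turned under quantile normalization for Il23r (−0.0093) and Stat5a (−0.030), and under median centring for Il18r1 (0.037) and Stat4 (0.037). With array weights they turned for Il18r1 (0.0035), Stat6 (0.032) and Stat5a (−0.090). Without control arrays 1 and 2 together they turned for Il23r (−0.0048), Tyk2 (−0.0068), Stat4 (0.14), Stat5b (0.0051), Nfkbiz (−0.048) and Tnfaip3 (−0.031). With 1 array left out, genes whose sign turned ranged as follows. Il23r ran from −0.045 to 0.20, Il12rb2 from −0.19 to 0.0092, Il18r1 from −0.092 to 0.11 and Jak2 from −0.035 to 0.54. Tyk2 ran from −0.0020 to 0.69, Stat4 from −0.072 to 0.046, Il1rl2 from −0.045 to 0.33 and Sigirr from −0.0076 to 0.21. Stat5a ran from −0.092 to 0.27, Stat5b from −0.17 to 0.0088 and Stat6 from −0.44 to 0.031. The cause was not tested. The filter on low values left no value for Il12rb2, Il1a, Il33, Il1rapl1 and Il1rl2.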
